A study of Mus musculus with 48 samples.

Results

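The genes described are 8 markers of regulatory T cells: Foxp3, Il2ra, Ikzf2, Ikzf4, Nrp1, Lrrc32, Il10 and Ebi3. They were chosen by name and were found as 8 of the 34932 genes to which transcripts of the 48 libraries could be assigned. RNA was sequenced from 3 sorted populations, namely CD4+ T cells, CD8+ T cells and leukocytes with CD45 but neither CD4 nor CD8 (called CD45+ cells here), each taken from subcutaneous B16F10 tumors and from tumor-draining inguinal lymph nodes. Cells from the tumor are called TILs and those from the nodes TDLNs. B16F10 is a transplantable mouse melanoma line.

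All mice were C57BL/6J, 6 to 10 weeks old, and all carried the tumor. WT mice were littermate controls. Yap-cKO mice carried a loxP-flanked Yap gene on both alleles, a lox-stop-lox EYFP reporter and a Cre transgene driven by the CD4 promoter, which is active from the double-positive thymocyte stage. Deletion was therefore targeted to CD4+ and CD8+ T cells together, regulatory T cells included, and not to one T-cell subset. Each of the 12 combinations of genotype, sort and tissue had 4 libraries. No source used here says whether a library came from 1 mouse or from several, so the tests measure the spread between these libraries.

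Regulatory T cells are CD4+ T cells that restrain other T cells, and they are common in mouse and human tumors. The transcription factor Foxp3 defines the lineage and acts with the Ikaros-family proteins Helios (Ikzf2) and Eos (Ikzf4). The cells depend on interleukin-2, which they capture through the high-affinity receptor chain CD25 (Il2ra), and they carry neuropilin-1 (Nrp1) and GARP (Lrrc32), the protein that holds latent TGF-beta at the cell surface. They secrete interleukin-10 (Il10) and the cytokine subunit Ebi3, which pairs with Il12a to form interleukin-35 and with Il27 to form interleukin-27. None of these genes is restricted to regulatory T cells: activated T cells make Il2ra, Nrp1 is found on endothelial and myeloid cells, Lrrc32 on endothelial cells, and macrophages and dendritic cells make Il10 and Ebi3.

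Libraries held between 12656302 and 24213689 gene-assigned counts, so that 3 counts, the floor used here, correspond to 0.124 to 0.237 counts per 1000000 gene-assigned counts (CPM). Yap1, the targeted gene, lay at 16.8 to 30.2 CPM in WT CD4+ TILs and at 1.8 to 5.25 CPM in Yap-cKO CD4+ TILs, with similar ranges in CD8+ TILs. In the TDLN libraries of CD4+ and CD8+ T cells it lay at 1.14 to 5.31 CPM in both genotypes, so the label could not be checked there by this gene. In TILs of both T-cell sorts the Yap1 difference went along with one in melanocyte-lineage transcripts, described below. The part of tumor cells in the Yap1 values was not tested, so these values do not check the label either. The sum of 4 Y-linked genes was 47.8 to 445 CPM in libraries numbered 1 to 3 of every WT group, and 1.83 to 22.3 CPM in WT libraries numbered 4 and in every Yap-cKO library. Tumor T-cell sorts also differed in transcripts of other cells: 7 melanocyte-lineage genes summed to 5995 to 18380 CPM in WT CD4+ TILs and to 177 to 2067 CPM in Yap-cKO CD4+ TILs. The part that either difference has in the results below was not tested except where a value is given.

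Foxp3 spans X:7573644-7595245 on GRCm38, on the plus strand, and 4 of its transcripts were quantified. RefSeq promoter sequences of GRCm38.p6 were at hand for 4 of the genes, with 2 start sites for Foxp3 and 1 each for Il2ra, Nrp1 and Ebi3. The windows of 300 bases, 250 before the start and 50 after it, were searched on both strands for the letters GGAATG (bound by TEAD factors, the DNA-binding partners of Yap), TGTTTAC (forkhead), TTCNNNGAA (STAT) and TGGGAA (Ikaros). The letters of the STAT and Ikaros motifs can overlap. Both Foxp3 windows are shown because Foxp3 is the gene that defines the set, with the matched letters in capitals.
Foxp3, X:7579426-7579725, plus strand: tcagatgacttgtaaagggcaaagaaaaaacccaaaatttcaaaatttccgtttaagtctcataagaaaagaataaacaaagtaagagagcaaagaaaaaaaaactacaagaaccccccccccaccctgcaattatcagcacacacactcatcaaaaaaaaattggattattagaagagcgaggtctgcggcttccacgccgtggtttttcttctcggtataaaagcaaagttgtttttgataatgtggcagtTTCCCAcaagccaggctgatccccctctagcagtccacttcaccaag
Foxp3, X:7580233-7580532, plus strand: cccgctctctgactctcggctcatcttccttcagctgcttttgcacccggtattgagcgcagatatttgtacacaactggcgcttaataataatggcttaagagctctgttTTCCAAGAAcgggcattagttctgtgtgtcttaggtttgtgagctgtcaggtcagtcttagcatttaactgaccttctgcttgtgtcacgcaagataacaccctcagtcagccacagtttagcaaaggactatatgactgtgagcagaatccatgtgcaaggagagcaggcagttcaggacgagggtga
The first window held an Ikaros match starting 3 bases after the start site, read on the opposite strand. The second held a STAT match starting at position -139. No TEAD or forkhead letters were found in any of these windows, and the Il2ra, Nrp1 and Ebi3 windows held none of the searched motifs. Of 32851 RefSeq promoters of this length, 14.7% held the TEAD letters, 3.65% the forkhead letters, 8.3% the STAT letters and 25.6% the Ikaros letters. A match is only a description of the sequence.

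Foxp3 was found almost entirely in CD4+ T cells. Its level was 89.8, 224, 288 and 208 CPM in the WT CD4+ TIL libraries 1 to 4 and 636, 638, 371 and 550.5 CPM in the Yap-cKO ones. The 2 groups did not overlap, the lowest Yap-cKO library, number 3, lying above the highest WT library, also number 3. In TDLNs the WT CD4+ libraries held 150, 188, 106 and 143 CPM and the Yap-cKO ones 144, 122, 47.7 and 60.6 CPM, with overlap. In the 12-group order of means Yap-cKO CD4+ TILs came first (549 ± 125 CPM, SD, n = 4), followed by WT CD4+ TILs (202 ± 82.8), WT CD4+ TDLNs (147 ± 33.7) and Yap-cKO CD4+ TDLNs (93.5 ± 46.6). The last 3 of these overlapped each neighbour, and all 4 lay apart from the CD8+ and CD45+ groups. CD8+ libraries from TDLNs held 1.07 to 3.03 CPM. In CD8+ TILs the level was uneven, at 0.316, 0.541, 5.62 and 2.15 CPM in WT, compared with 16.6, 15.7, 0.465 and 2.81 CPM in Yap-cKO. Foxp3 shares 590 of its 4577 exonic bases with Ccdc22 and 266 with Ppp1r3f, both on the other strand, and the counts do not separate strands, so reads from those stretches cannot be told apart.

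**Figure D1:**
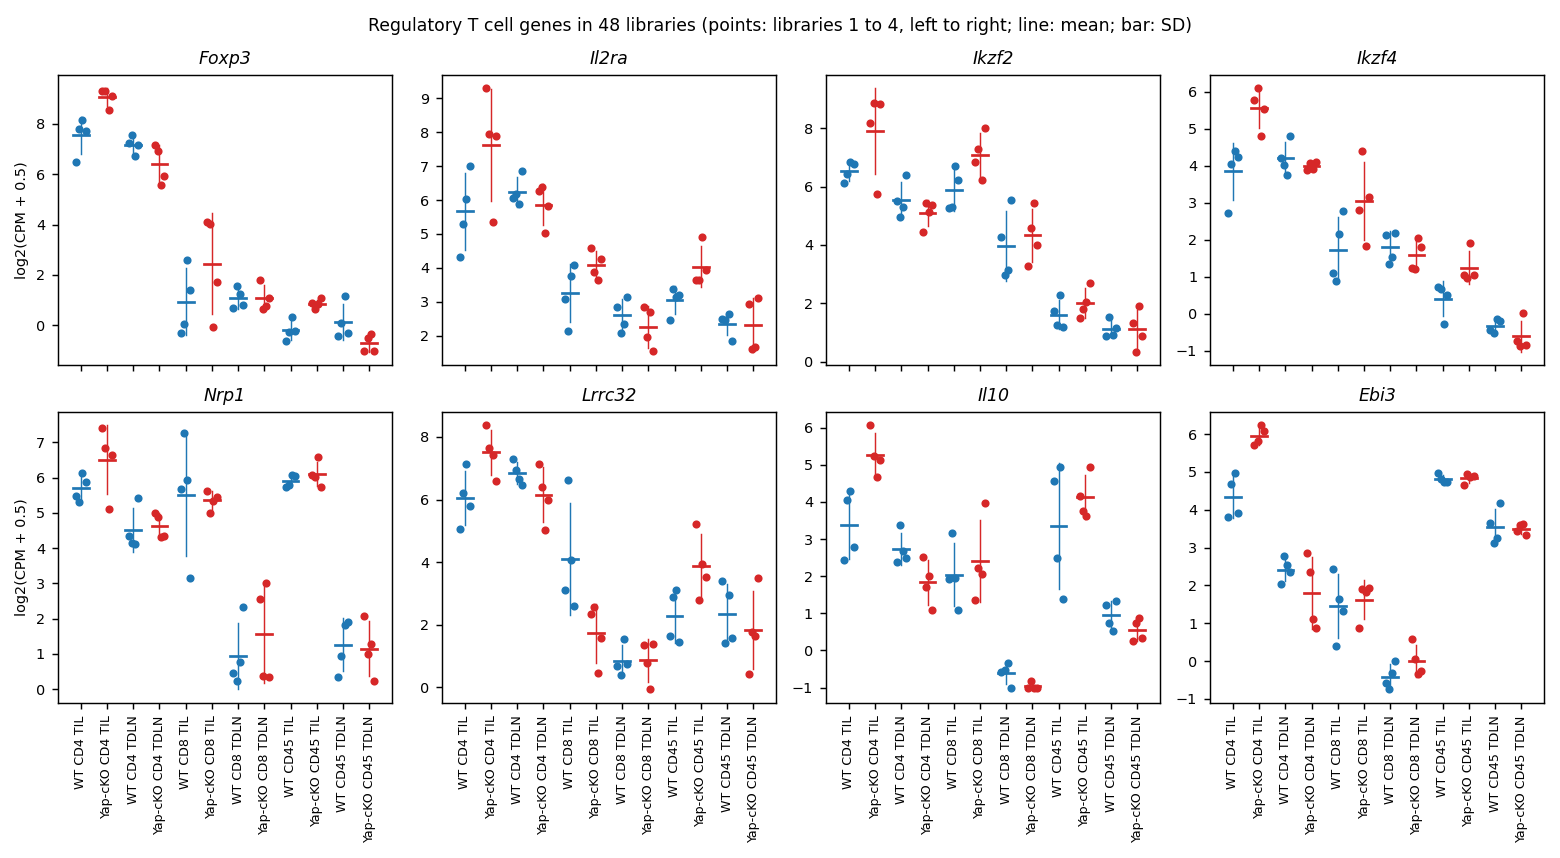
Level of each gene in all 48 libraries, as log2(CPM + 0.5), by sort, tissue and genotype (blue WT, red Yap-cKO; points are libraries 1 to 4 from left to right, the horizontal line is the mean and the vertical bar the SD). Foxp3 and Ikzf4 are high in CD4+ T cells, Nrp1, Il10 and Ebi3 are also high in CD45+ TILs, and Ikzf2 is also high in CD8+ TILs.

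The Ikaros-family partners Ikzf2 and Ikzf4 differed from each other in where they were found. Ikzf2 (1:69531214-69687245, minus strand) was at 68.5, 85.6, 116 and 109 CPM in WT CD4+ TILs and at 291, 468.5, 52.7 and 459 CPM in Yap-cKO CD4+ TILs. Yap-cKO library 3 lay below every WT library while the other 3 lay above them all. CD8+ TILs held it too, at 37.6 to 104 CPM in WT and 73.6 to 259 CPM in Yap-cKO, and these ranges overlapped those of CD4+ TILs. CD45+ cells held 0.762 to 5.97 CPM in either tissue. Ikzf4 (10:128630843-128645991, minus strand) was low by comparison, at 6.1, 16.1, 20.7 and 18.2 CPM in WT CD4+ TILs and 54.4, 68.2, 27.5 and 45.4 CPM in Yap-cKO CD4+ TILs, which did not overlap. Its CD4+ TDLN libraries held 12.9 to 27.5 CPM in WT and 14.2 to 16.5 CPM in Yap-cKO, and the highest of these, WT library 4, equalled the lowest Yap-cKO CD4+ TIL library to 3 digits.

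Il2ra (2:11642807-11693193, plus strand), the interleukin-2 receptor chain, varied widely between libraries of 1 group. WT CD4+ TILs held 19.6, 39, 65 and 127 CPM and Yap-cKO CD4+ TILs 633, 246, 40.2 and 238 CPM, so that Yap-cKO library 3 fell within the WT range. CD4+ TDLNs held 58 to 116 CPM in WT and 32 to 82.4 CPM in Yap-cKO. The other sorts held 2.41 to 29.5 CPM, and in CD45+ TILs the genotypes did not overlap, at 5.04, 9.97, 8.42 and 8.75 CPM in WT, compared with 12.1, 12.1, 29.5 and 14.9 CPM in Yap-cKO.

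The surface proteins Nrp1 and Lrrc32 were found in several sorts. Nrp1 (8:128358604-128503363, plus strand) was at 44.1, 38.9, 69.5 and 57.9 CPM in WT CD4+ TILs and 170, 114, 34.1 and 99.9 CPM in Yap-cKO CD4+ TILs, the third Yap-cKO library lying below every WT one. Its 6 tumor groups overlapped neighbour by neighbour in the order of means, with 52.5 to 66.3 CPM in WT CD45+ TILs and 8.34 to 154 CPM in WT CD8+ TILs. Outside the tumor it was seen mainly in CD4+ T cells, at 16.9 to 42.7 CPM, against 0.659 to 7.48 CPM in the CD8+ and CD45+ sorts of the nodes. Lrrc32 (7:98489283-98502181, plus strand) was at 32.8, 73.5, 141 and 55 CPM in WT CD4+ TILs and 331, 199, 170 and 96.8 CPM in Yap-cKO CD4+ TILs, with overlap between library 4 of Yap-cKO and library 3 of WT. In CD4+ TDLNs it ranged over 88.3 to 157 CPM for WT and 32.3 to 141 CPM for Yap-cKO, in CD8+ TDLNs over 0.457 to 2.44 CPM, and in CD45+ cells over 0.848 to 36.9 CPM.

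The secreted members Il10 and Ebi3 were low in nodes and higher in tumors. Il10 (1:131019845-131024974, plus strand) was at 4.88, 16.1, 19.1 and 6.38 CPM in WT CD4+ TILs and 66.3, 36.9, 24.9 and 34.5 CPM in Yap-cKO CD4+ TILs, which did not overlap. It was at 4.69 to 9.81 CPM in WT CD4+ TDLNs and 1.63 to 5.26 CPM in Yap-cKO ones, and CD45+ TILs spread from 2.11 to 30.1 CPM. CD8+ TDLN libraries held almost none of it, 1 count in all in Yap-cKO. Ebi3 (17:55952640-55957022, plus strand) was at 13.4, 25.1, 30.8 and 14.7 CPM in WT CD4+ TILs and 51.9, 55.9, 74.8 and 67.4 CPM in Yap-cKO CD4+ TILs, again with no overlap. Its second source was the CD45+ sort, with 24.6 to 30.9 CPM in TILs and 8.23 to 17.5 CPM in TDLNs, against 1.34 to 6.71 CPM in CD4+ TDLNs.

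Levels can be compared between genes only per transcript length, as transcripts per 1000000 (TPM). On that scale the mean in WT CD4+ TILs was highest for Foxp3 (67.5 TPM) and Ikzf2 (41.8 TPM), near 20 to 26 TPM for Lrrc32, Ebi3, Il2ra and Nrp1, and lowest for Il10 (12.2 TPM) and Ikzf4 (7.91 TPM). Yap-cKO CD4+ TILs had the same 2 genes at the top, at 193 TPM for Foxp3 and 154 TPM for Ikzf2, and Ikzf4 at the bottom with 22.4 TPM. In WT CD45+ TILs the leading members were Ebi3 (33.1 TPM), Nrp1 (20.9 TPM) and Il10 (15.2 TPM), and Foxp3 was the lowest at 0.137 TPM. In WT CD8+ TILs Ikzf2 (31.3 TPM) and Nrp1 (25.9 TPM) led, and Foxp3 was again the lowest at 0.716 TPM.

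To ask how Yap deletion related to these genes in tumor CD4+ T cells, the 4 Yap-cKO and 4 WT CD4+ TIL libraries were compared with edgeR's quasi-likelihood test across all genes, with TMM scaling and Benjamini-Hochberg adjustment. A gene was called when its adjusted p was below 0.05 and its log2 fold change larger than 1 in size. Foxp3, Ikzf4, Il10 and Ebi3 were higher in Yap-cKO and passed the test, 4 of the 8 members, where 1.36% of the 14205 genes tested were called higher. Ebi3 was 3.38-fold higher (log2 1.76 ± 0.37 SE, adjusted p = 0.0181) and Ikzf4 3.47-fold higher (log2 1.79 ± 0.40, adjusted p = 0.0214). Foxp3 was 2.97-fold higher (log2 1.57 ± 0.36, adjusted p = 0.0256) and Il10 3.82-fold higher (log2 1.93 ± 0.49, adjusted p = 0.0365). The other 4 members had positive log2 fold changes that missed the threshold: 1.81 ± 0.50 for Ikzf2 (adjusted p = 0.05004), 2.31 ± 0.72 for Il2ra (0.0784), 1.55 ± 0.49 for Lrrc32 (0.0824) and 1.09 ± 0.40 for Nrp1 (0.123). The median over the 8 was 1.775, against 0.14 over all genes tested.

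These calls depended on single libraries. Leaving out one library at a time gave 7 called members without Yap-cKO library 3, all but Lrrc32, and 5 without WT library 3. It gave 1 without WT library 1 (Foxp3), WT library 4 (Ikzf4), or Yap-cKO library 1 or 2 (Ebi3 in both cases), and 0 without WT library 2 or Yap-cKO library 4. The share of all genes called is not given for these fits, nor for the edgeR fits below that leave out a library. Such counts therefore have no background beside them. DESeq2 called 7, where it called 4.1% of all genes higher. A covariate for the Y-linked genes left 0 members and 2 of all genes called (0.0141%, either direction). The higher Y-linked sum occurred only in WT, in libraries 1 to 3. Genotype and the Y-linked difference therefore largely cannot be told apart by this fit. In bulk libraries more cells of a type and more RNA per cell cannot be told apart.

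General T-cell transcripts had positive log2 fold changes in the same comparison that did not pass the test. Cd4 was at 115, 408.5, 532 and 491 CPM in WT, compared with 946, 928, 538 and 810 CPM in Yap-cKO, without overlap (log2 1.19 ± 0.43, adjusted p = 0.117). Cd3e, a T-cell receptor subunit, ranged from 150 to 884 CPM in WT and from 708 to 1425 CPM in Yap-cKO (log2 1.02 ± 0.51, adjusted p = 0.244). The sum of 5 fibroblast genes was 109 to 587 CPM in WT against 7.11 to 48.6 CPM in Yap-cKO, that of 6 endothelial genes 172.5 to 329 against 90.6 to 130 CPM, and that of 8 macrophage and monocyte genes 320.5 to 818 against 124 to 570 CPM. Sums of 5 dendritic-cell genes were 21.2 to 41.8 CPM in WT against 35.9 to 79.3 CPM in Yap-cKO, and sums of 4 B-cell genes 6.51 to 14.1 against 11.1 to 18.7 CPM. The sum of 3 NK-cell genes was 6.29 to 13.6 against 9.65 to 13.2 CPM. The part of these cells in the values of Il10 and Ebi3 was not tested. Each marker gene was detected in both groups. WT library 1 had the lowest Cd4 level and the highest melanocyte-lineage sum of the 4 WT libraries.

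When libraries were scaled on T-cell transcripts in place of all genes, the differences between genotypes shrank and no member was called. Scaled on Cd4, the log2 fold change of Foxp3 was 0.25 ± 0.58, where 0.0915% of genes were called higher and 35.8% lower. Scaled on Cd3e it was 0.59 ± 0.63 (0.0774% of genes called higher and 18.8% lower) and scaled on 15 T-lineage genes 0.62 ± 0.45 (0.12% higher and 23% lower). The median over all genes moved from 0.14 to -1.52, -1.30 and -1.15 under these scalings. Nrp1 turned negative, at -0.57, -0.12 and -0.07 under the same 3 scalings. With edgeR on the T-lineage scaling, Ikzf4 had a log2 fold change of 0.89 ± 0.50, Il10 of 1.00 ± 0.56 and Ebi3 of 0.62 ± 0.51.

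**Figure D2:**
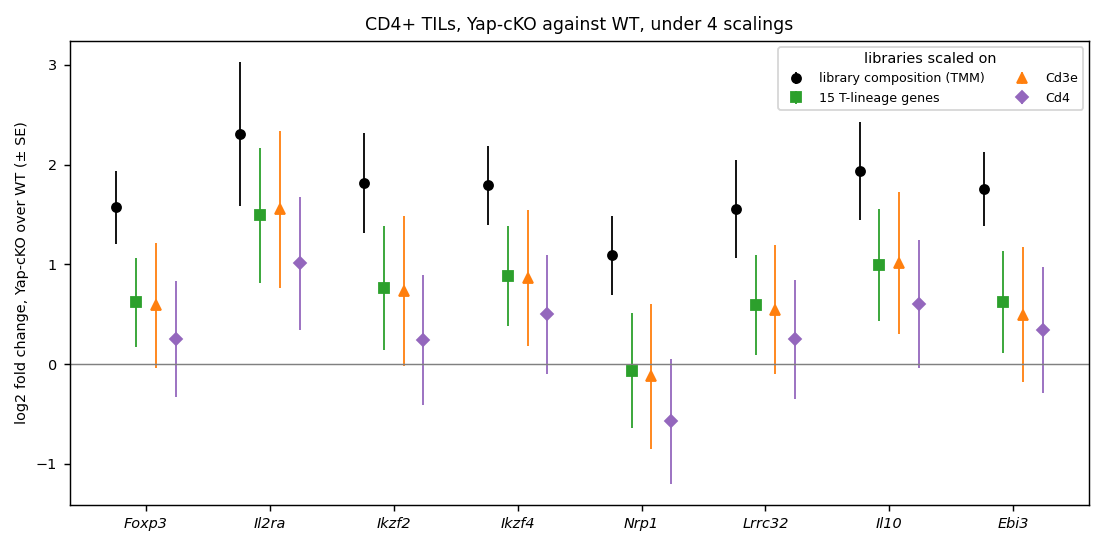
Log2 fold change of Yap-cKO over WT CD4+ TILs for each gene (y axis, bars are SE, 4 libraries a group) when libraries were scaled on all genes (TMM), on 15 T-lineage genes, on Cd3e or on Cd4. The TMM values run from 1.09 for Nrp1 to 2.31 for Il2ra, and each gene's values on the T-cell scalings lie lower, those of Nrp1 below 0.

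The ratio to Cd4 within each library gave the same comparison without a fit. Foxp3 stood at 78.4, 54.8, 54.2 and 42.3 counts per 100 Cd4 counts in WT CD4+ TILs and at 67.2, 68.7, 68.9 and 68 in Yap-cKO. The Yap-cKO libraries lay close together and inside the WT range (57.4 ± 15.1 against 68.2 ± 0.786, exact two-sided permutation test p = 0.143, n = 4 each). No member separated the genotypes in TILs by its ratio to Cd4 or to Cd3e, while 36.2% of genes were lower and 0.0915% higher in Yap-cKO without overlap per Cd4, and 24.1% lower and 0.155% higher per Cd3e. For Cd4 the smallest exact p in TILs was that of Ikzf4, with 5.32, 3.93, 3.9 and 3.71 counts per 100 Cd4 in WT and 5.75, 7.35, 5.11 and 5.6 in Yap-cKO (p = 0.0571). Without WT library 1, Foxp3, Ikzf4 and Il10 were higher in Yap-cKO without overlap, 3 members (58 of 13868 genes were). Without Yap-cKO library 3 it was 2 (32 of 14029 genes). For Cd3e the count was 1 without WT library 1 (94 of 13868 genes higher) and 4 without Yap-cKO library 3 (145 of 14029). In all, 92 ratio tests were computed, 0.0286 is the smallest p that 4 against 4 libraries allow, and the exact p-values are unadjusted.

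**Figure D3:**
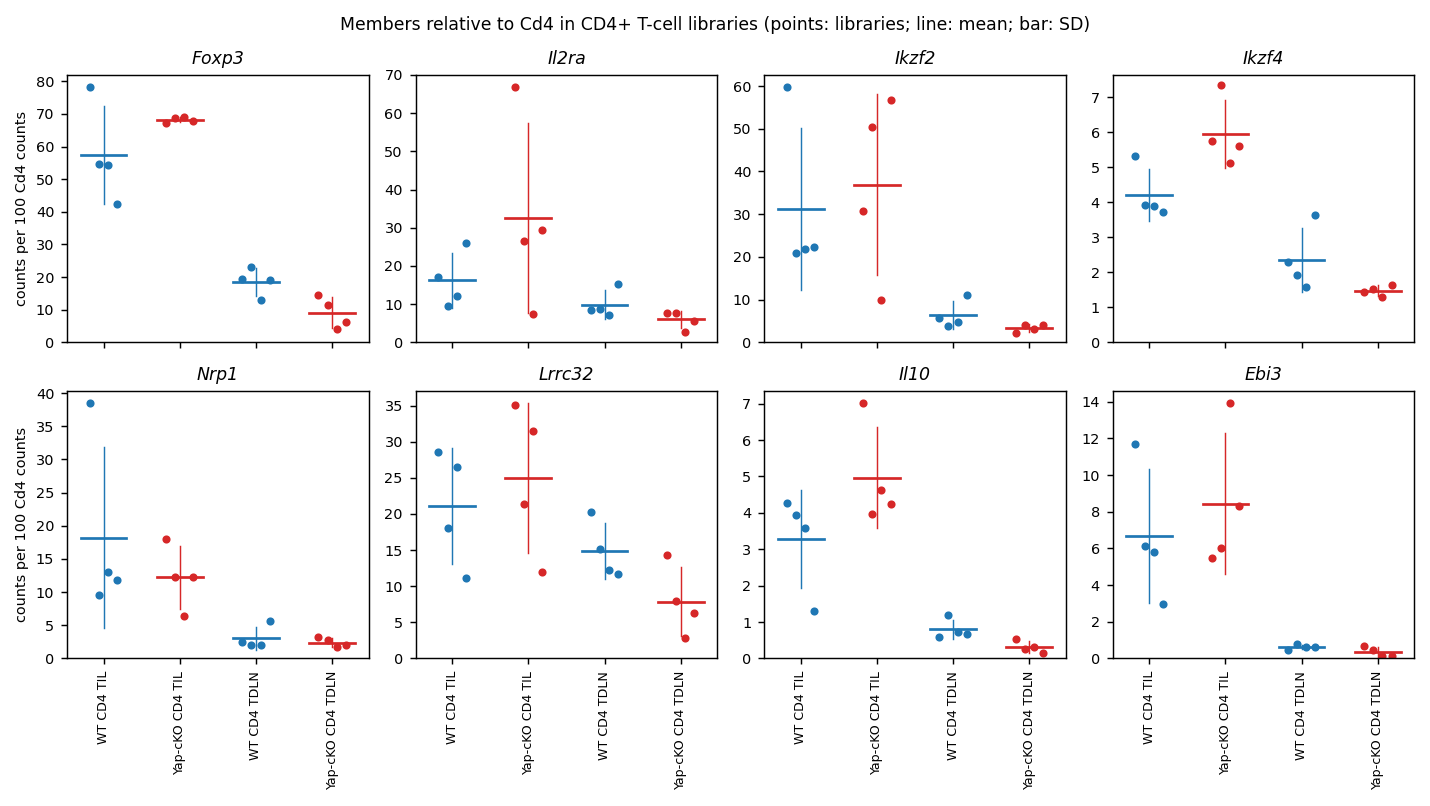
Counts of each gene per 100 Cd4 counts (y axis) in the 16 CD4+ T-cell libraries (blue WT, red Yap-cKO; points are libraries, the horizontal line is the mean and the bar the SD). Within TILs the genotypes overlap for all 8 genes, and the Yap-cKO Foxp3 points lie together between 67.2 and 68.9.

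In TDLN CD4+ T cells no member was called between genotypes by edgeR, against 0.0462% of genes called in either direction. Log2 fold changes ran from -0.97 ± 0.42 for Il10 to 0.08 ± 0.31 for Nrp1, with Foxp3 at -0.65 ± 0.37 (adjusted p from 0.970 to 0.978), and 7 of 8 were negative (median -0.482, against 0.003 over all genes). Il10 alone had an unadjusted p under 0.05, and DESeq2 also called 0. Relative to Cd4, Foxp3 was at 19.3, 23, 12.8 and 19 counts per 100 in WT and 14.6, 11.5, 4.19 and 6.05 in Yap-cKO, with overlap between WT library 3 and Yap-cKO library 1 (p = 0.0571, exact permutation test). Il10 was the 1 member without overlap, at 0.603, 1.2, 0.72 and 0.684 per 100 Cd4 in WT and 0.535, 0.259, 0.311 and 0.163 in Yap-cKO (log2 -1.42, exact p = 0.0286). The background was 15.6% of genes lower and 0.115% higher without overlap, and Cd4 itself was at 754 to 825 CPM in WT and 984 to 1139 CPM in Yap-cKO. Relative to Cd3e, Il10 was again the only one (log2 -0.90, exact p = 0.0286, 0.908% of genes lower and 0.608% higher). The count for Cd4 was 4 without WT library 3 (2456 of 12790 genes lower) or Yap-cKO library 1 (3893 of 12832). It was 2 without WT library 2 (2583 of 12820) or Yap-cKO library 4 (2621 of 12702). That for Cd3e was 2 without WT library 3 (198 of 12790 lower) or Yap-cKO library 1 (241 of 12832). Without WT library 4, Nrp1 was higher and Il10 lower per Cd3e (783 and 196 of 12716 genes).

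The difference between tissues in the effect of genotype was tested as an interaction over the 16 CD4+ libraries. Ikzf4 (log2 2.06 ± 0.46, adjusted p = 0.0373) and Il10 (log2 2.90 ± 0.67, adjusted p = 0.0433) had a higher log2 fold change of Yap-cKO over WT in TILs (1.79 and 1.93) than in TDLNs (-0.27 and -0.97), 2 of 8 members, where 0.205% of genes were called higher. Foxp3 (log2 2.21 ± 0.54, adjusted p = 0.0509) and Ikzf2 (2.32 ± 0.61, 0.0673) lay just outside, followed by Ebi3 (2.20, 0.0952), Il2ra (2.62, 0.129), Lrrc32 (2.09, 0.142) and Nrp1 (1.01, 0.392). Leaving out a library gave 5 called without Yap-cKO TIL library 3, 4 without Yap-cKO TDLN library 1, 1 without WT TDLN library 3 or 4 or WT TIL library 1, 3 without WT TIL library 3, and 0 without any one of the others.

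In CD8+ TILs the only member called between genotypes was Lrrc32, which was lower in Yap-cKO. Its libraries held 8.22, 98.6, 16.4 and 5.5 CPM in WT, compared with 4.55, 5.37, 0.872 and 2.47 CPM in Yap-cKO, narrowly without overlap (log2 -3.16 ± 0.92, adjusted p = 0.0482), in a comparison where 9.14% of genes were called lower. Endothelial genes summed to 220, 1447, 366 and 101 CPM in the 4 WT libraries and to 73.1 to 95.6 CPM in Yap-cKO, and fibroblast genes to 77.1, 814, 89.2 and 35.4 CPM against 4.12 to 10.5 CPM. WT library 2 was thus the highest in all 3, and the part of such cells in the Lrrc32 difference was not tested. Lrrc32 was called in 1 of the 8 fits that left out a library, that without WT library 3, which also called Ikzf2. Without Yap-cKO library 3 Ikzf2 alone was called, and without any other library 0 members were. Foxp3 (log2 2.09 ± 1.09, adjusted p = 0.2), Ikzf2 (1.28 ± 0.45, 0.0786) and Ikzf4 (1.54 ± 0.67, 0.137) were not called. Cd4 was itself at 0.316 to 1.78 CPM in WT and 3.16 to 6.26 CPM in Yap-cKO CD8+ TILs (log2 2.38 ± 0.59, adjusted p = 0.0301), and its part in the Foxp3 values was not tested.

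In CD45+ TILs edgeR called no member, against 0.991% of genes in either direction, although all 8 log2 fold changes were positive (median 0.8, against 0.015 over all genes) and 4 had an unadjusted p under 0.05. Foxp3 was at 0.156, 0.338, 0.751 and 0.36 CPM in WT, compared with 1.33, 1.08, 1.28 and 1.6 CPM in Yap-cKO, without overlap (log2 1.75 ± 0.46, adjusted p = 0.0977). DESeq2 called Foxp3, Il2ra and Lrrc32 higher, 3 members, where it called 0.543% of all genes higher. Cd3e was at 1.14 to 2.01 CPM in WT and 1.1 to 3.1 CPM in Yap-cKO in the same libraries. The node comparisons of these sorts called none: in CD8+ TDLNs 6 members passed the count filter, with log2 fold changes of -0.37 to 0.97 (0.0158% of genes called), and in CD45+ TDLNs 6 passed it, with -0.63 to 0.07 (0.0596%). None had an unadjusted p under 0.05, and DESeq2 also called 0. Il10 and Ebi3 did not pass the filter in CD8+ TDLNs, nor Foxp3 and Ikzf4 in CD45+ TDLNs, where the 4 Yap-cKO libraries held 0 to 0.286 CPM of Foxp3.

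Tumor and node were then compared within each sort and genotype. In WT CD4+ T cells only Ebi3 was called, higher in TILs (log2 1.88 ± 0.36, adjusted p = 0.00112), 1 of 8 where 22.9% of genes were called higher. Foxp3 differed by 0.26 ± 0.33, while Cd4 (-1.25 ± 0.39) and Cd3e (-1.15 ± 0.43) were lower in TILs. The count was 3 without WT TDLN library 4, and 2 without any one of the WT TIL libraries, in both directions together. Over the 8 fits that left out a library, Nrp1 was called in 3 and Ikzf2 in 1, higher in TILs. Il2ra and Lrrc32 were called in 1 each, lower in TILs. In Yap-cKO CD4+ T cells 7 members were called higher in TILs, all but Lrrc32, where 12.4% of genes were. Of these 7, Il2ra was called in only 1 of the 8 fits that left out a library. Ebi3 (log2 3.94 ± 0.57), Il10 (3.46 ± 0.48), Ikzf2 (3.04 ± 0.54) and Foxp3 (2.37 ± 0.43) differed most, and Cd4 by -0.51 ± 0.27.

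Ratios to T-cell transcripts were compared between the tissues in the same way. Foxp3 rose from 18.5 ± 4.2 counts per 100 Cd4 in WT TDLNs to 57.4 ± 15.1 in WT TILs (log2 1.63), and from 9.09 ± 4.81 to 68.2 ± 0.786 in Yap-cKO (log2 3.08), each with an exact p of 0.0286 and no overlap. In WT 6 members were higher per Cd4 in TILs without overlap, all but Il2ra and Lrrc32, but 55.1% of genes were, and in Yap-cKO the same 6 where 24.7% were. Ebi3 had the largest difference, log2 3.28 in WT and 4.83 in Yap-cKO, followed in Yap-cKO by Il10 (4.06). Per Cd3e it was 5 members in WT, those 6 without Ikzf4 (45.7% of genes), and 4 in Yap-cKO: Foxp3, Lrrc32, Il10 and Ebi3 (19.2% of genes). Without Yap-cKO TIL library 3 all 8 were higher per Cd3e without overlap, where 3680 of 13079 genes were.

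In the other sorts some of these genes were higher in the tumor, and Foxp3 was called in CD8+ T cells of neither genotype. In WT CD8+ T cells 5 members were called higher in TILs (22.5% of genes): Nrp1 (log2 5.01 ± 0.83), Il10 (4.23 ± 0.78), Lrrc32 (4.14 ± 0.89), Ebi3 (3.03 ± 0.69) and Ikzf2 (1.48 ± 0.52). Il10 and Ebi3 passed the count filter only through the TIL libraries, so that a call could only be in that direction. Without any 1 TIL library both failed the filter and were not tested, and of the other 3, Nrp1 and Lrrc32 were called each time and Ikzf2 without TIL library 1 or 2. In Yap-cKO CD8+ T cells 6 were called (10.9% of genes), among them Nrp1 (3.34 ± 0.64), Ikzf2 (2.58 ± 0.46) and Ikzf4 (1.71 ± 0.55), with 3 called without TIL library 2 or 4, where Il10 failed the count filter. Il10 was also called there, from 1 count in the 4 node libraries to 2.09 to 15 CPM in the tumor, so that no fold is given. In CD45+ cells 4 of the 7 members tested were called in WT (21.9% of genes), led by Nrp1 (4.93 ± 0.45) and Il10 (3.48 ± 0.78), and all 8 in Yap-cKO (21.8%). Ikzf4 in WT passed the filter through TIL libraries 1, 2 and 4 (22, 26 and 18 counts) and TDLN library 3 (10 counts). Foxp3 and Ikzf4 in Yap-cKO passed it only through the TIL libraries. Without a Yap-cKO TIL library both were untested, and 5 or 6 of the other 6 were called. In CD45+ TILs the 8 macrophage and monocyte genes summed to 13160 to 26580 CPM over both genotypes.

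The comparison of sorts shows how specific each gene was to CD4+ T cells. In WT TDLNs 7 members were higher in CD4+ than in CD8+ T cells (2.16% of genes), Foxp3 by log2 6.35 ± 0.38 and Lrrc32 by 6.31 ± 0.46, and Ikzf2 was not called (1.26 ± 0.51, adjusted p = 0.319). In Yap-cKO TDLNs 5 were higher (1.2% of genes): Foxp3 (5.67 ± 0.55), Lrrc32 (5.69 ± 0.65), Il2ra (3.68 ± 0.42), Ikzf4 (2.51 ± 0.29) and Il10. Il10 in both genotypes and Ebi3 in WT passed the count filter only through the CD4+ libraries. In WT TILs Foxp3 alone was called (log2 6.53 ± 0.84, adjusted p = 0.0189), 1 of 8, where 0.0491% of genes were. It was 0 without WT CD8+ TIL library 4 or WT CD4+ TIL library 2 or 4. In Yap-cKO TILs 6 members were higher in CD4+ T cells (1.36% of genes), and Nrp1 (1.38 ± 0.41) and Ikzf2 (1.07 ± 0.57) were not called. With a library left out the count in Yap-cKO TILs was 4 to 7, and Ikzf4 and Il10 were called in 2 of 8 fits each. Same-numbered libraries of the CD4+ and CD8+ sorts deviated together in WT and in Yap-cKO TILs. The Yap-cKO TIL values above come from fits without that pairing. With the replicate block edgeR called 8 members in WT TDLNs, Ikzf2 included (log2 1.49, adjusted p = 0.0041). It called 2 in WT TILs, Foxp3 and Il2ra (log2 2.46, adjusted p = 0.019). The share of all genes called higher was then 4.2% and 0.4%.

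Against CD45+ cells the set divided. In TDLNs 7 members were higher in CD4+ T cells, in WT where 11.1% of genes were and in Yap-cKO where 12.4% were, and Ebi3 was lower (log2 -1.33 ± 0.35 in WT and -1.59 ± 0.50 in Yap-cKO, with 13.5% and 12.7% of genes called lower). In TILs Foxp3, Ikzf2, Ikzf4, Il2ra and Lrrc32 were higher in CD4+ T cells, 5 members in WT (17.6% of genes) and the same 5 in Yap-cKO (13.9%). Foxp3 differed by log2 8.47 ± 0.53 in WT. Nrp1, Il10 and Ebi3 were not called in TILs, with log2 fold changes of -0.68 ± 0.22, -0.90 ± 0.75 and -0.89 ± 0.29 in WT. In Yap-cKO TDLNs Foxp3 and Ikzf4 passed the count filter only through the CD4+ libraries and were untested without any 1 of these. Of the other 6 members, 5 were then called, all but Ebi3, without CD4+ library 2, 3 or 4.

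Ratios to Foxp3 describe how the other 7 genes moved relative to the defining one in CD4+ T cells. Between genotypes no ratio differed without overlap in TILs, where 57.7% of genes did (8188 lower and 10 higher in Yap-cKO), nor in TDLNs, where 3.9% did (2 lower and 504 higher) (exact p from 0.0857 to 0.914). Ikzf4 stayed within a narrow range, 0.0679, 0.0718, 0.0718 and 0.0877 counts per Foxp3 count in WT TILs and 0.0856, 0.107, 0.0742 and 0.0824 in Yap-cKO TILs. Il2ra spread widely, at 0.218, 0.174, 0.225 and 0.612 in WT TILs and 0.996, 0.386, 0.108 and 0.432 in Yap-cKO TILs. Yap-cKO TIL library 3 had the lowest ratio of its group for Il2ra, Ikzf2 (0.142), Ikzf4 and Nrp1 (0.0918) and the highest for Ebi3 (0.202). Without WT TIL library 4 the number separating the genotypes in TILs was 1 (Ikzf4, higher in Yap-cKO, as were 16 of 13876 genes). Without WT TDLN library 4 that in TDLNs was 1 (Nrp1, higher in Yap-cKO, as were 1014 of 12716 genes).

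Between tissues the ratios of Lrrc32 and Ebi3 to Foxp3 changed in opposite directions, in both genotypes. Lrrc32 was at 0.365, 0.329, 0.488 and 0.265 counts per Foxp3 count in WT TILs and 1.05, 0.659, 0.953 and 0.617 in WT TDLNs (log2 -1.18), and at 0.521, 0.312, 0.457 and 0.176 in Yap-cKO TILs and 0.984, 0.694, 0.678 and 1.04 in Yap-cKO TDLNs (log2 -1.30). Ebi3 was at 0.149, 0.112, 0.107 and 0.0705 in WT TILs and 0.0238, 0.0336, 0.0499 and 0.032 in WT TDLNs (log2 1.66), and at 0.0817, 0.0876, 0.202 and 0.122 in Yap-cKO TILs and 0.0467, 0.0381, 0.0349 and 0.0221 in Yap-cKO TDLNs (log2 1.75). None of these 4 pairs of groups overlapped, and each had an exact permutation p of 0.0286. The share of all genes without overlap was 16.9% higher and 14% lower in WT, and 1.78% higher and 73.3% lower in Yap-cKO. Of the 7 members tested, 1 was higher and 1 lower without overlap in each genotype. In WT this lies near the share of all genes in each direction. In Yap-cKO lower ratios to Foxp3, as for Lrrc32, were common among all genes, and higher ones, as for Ebi3, rare. Macrophage and monocyte genes, from cells that also make Ebi3, summed to 320.5 to 818 CPM in WT CD4+ TILs and to 16 to 17 CPM in WT CD4+ TDLNs, and their part in the Ebi3 ratio was not tested. The number of members that separated the tissues was 4 in WT without TDLN library 4 (4653 of 13801 genes, either direction) or TIL library 4 (3640 of 12897). It was 4 in Yap-cKO without TIL library 1 (10114 of 13083).

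**Figure D4:**
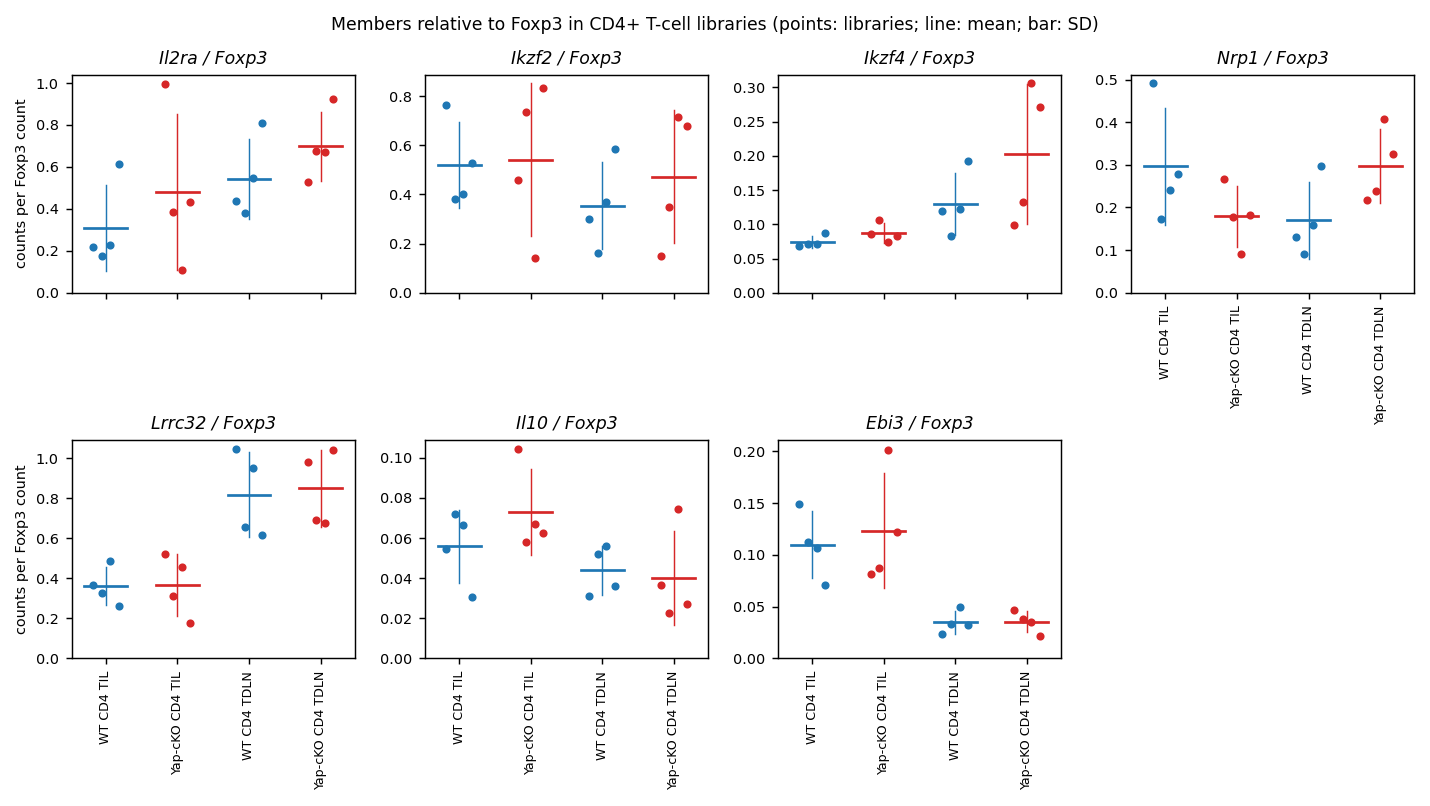
Counts of 7 genes per Foxp3 count (y axis) in the 16 CD4+ T-cell libraries (blue WT, red Yap-cKO; points are libraries, the horizontal line is the mean and the bar the SD). Lrrc32 is lower and Ebi3 higher in TILs than in TDLNs in both genotypes, while the genotypes overlap within each tissue for every gene.

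The shares of the transcripts named here overlapped between genotypes by library within each tissue. The shares over all libraries of a group differed between tissues for a few genes. Both are given as a description of Salmon's assignment with no test. Foxp3-203, a protein-coding transcript, took 70.1% of the Foxp3 counts in WT TILs and 71.9% in Yap-cKO TILs, and 61.7% and 63.4% in the corresponding TDLNs. By library the tissues overlapped in WT (62.5 to 76.3% in TILs, 57.2 to 64.5% in TDLNs). They did not overlap in Yap-cKO (71.6 to 72.7% in TILs, 62.7 to 65% in TDLNs). For Ikzf2, the retained-intron transcript Ikzf2-205 took 46.4% of the counts in WT TILs (44.9 to 49.1% by library) and 30.8% in WT TDLNs (27.8 to 36%), which did not overlap. In Yap-cKO the ranges were 38.3 to 52.2% in TILs and 22.9 to 43.6% in TDLNs, and overlapped. The retained-intron transcript Nrp1-203 took 10.6% of Nrp1 counts in WT TILs and 9.6% in Yap-cKO TILs, against 3.32% and 4.03% in TDLNs. By library its tissues did not overlap in WT (7.42 to 14.2% in TILs, 2.1 to 6.7% in TDLNs). They overlapped in Yap-cKO (6.55 to 15.7% in TILs, 2.83 to 8.19% in TDLNs). Of Ikzf4 counts, 42.1 to 58% by group of CD4+ libraries were assigned to Ikzf4-208, a transcript annotated for nonsense-mediated decay, so that gene counts are not a measure of coding transcripts alone. In TILs the share of Ikzf4-208 by library was 44.7, 49.6, 39.6 and 36.9% in WT. It was 56.3, 55.7, 69.6 and 30.9% in Yap-cKO. Il10 and Ebi3 had 1 transcript each.

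**Figure D5:**
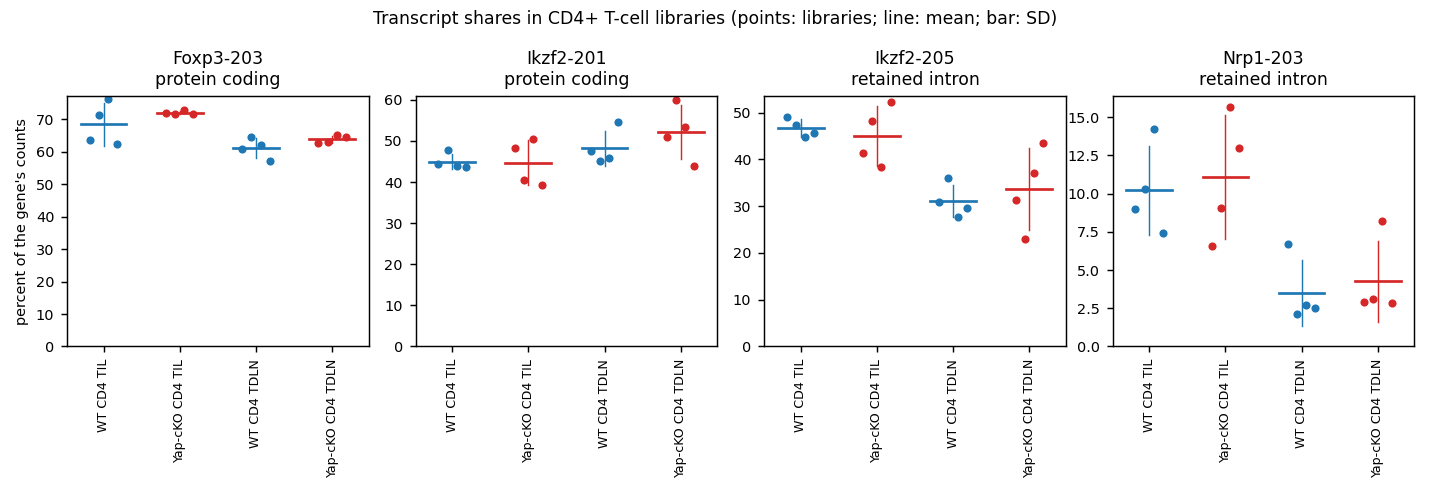
Share of the gene's counts (y axis, percent) assigned to Foxp3-203, Ikzf2-201, Ikzf2-205 and Nrp1-203 in the 16 CD4+ T-cell libraries (blue WT, red Yap-cKO; points are libraries, the line is their mean and the bar the SD). Ikzf2-205 lies at 44.9 to 49.1% in WT TILs and at 27.8 to 36% in WT TDLNs.

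Across the 12 group means of log2 CPM, the genes most like Foxp3 among 16868 genes were Ccl20 and Ncmap (Pearson r = 0.988 each), Sh3gl3 (0.98), Trpm6 (0.978) and B4galnt4 (0.969). Ccl20, Trpm6 and Sh3gl3 were scarce, with group means of at most 0.993, 1.34 and 1.52 CPM. Of the members, Il2ra (0.953, rank 15) and Ikzf4 (0.942, rank 21) followed Foxp3 most closely, then Lrrc32 (0.879, rank 65) and Ikzf2 (0.759, rank 296). Il10 (0.537), Nrp1 (0.495) and Ebi3 (0.268) followed it less than Cd3e (0.611) did, and Cd4 stood at 0.87. By Spearman's rank correlation over the same means the order was another one: Ikzf4 (0.951), Ikzf2 (0.867), Il2ra (0.769), Cd3e (0.636) and Lrrc32 (0.559). Cd4 (0.469), Il10 (0.378), Nrp1 (0.315) and Ebi3 (0.021) came after these. All these coefficients describe 12 points that share libraries within a sort, and carry no test.

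Further genes of regulatory T-cell biology were counted from 4 lists in the same CD4+ TIL comparison. The share of all genes called higher there was 1.36%. Of 18 surface and effector molecules, 17 had a positive log2 fold change and 10 were called higher in Yap-cKO (median 1.675), among them the interleukin-33 receptor Il1rl1 (3.31 ± 0.80), the growth factor Areg (2.66 ± 0.68), Fgl2 (2.17 ± 0.54) and the inhibitory receptor Klrg1 (2.17 ± 0.41). Of 9 genes of interleukin-2 receptor signaling, none was called (9 positive, median 1.047). Of 16 transcription factors that act with or upstream of Foxp3, 14 were positive and 2 were called (median 0.8), Gata3 (1.88 ± 0.45) and Prdm1 (1.67 ± 0.43). Of 11 partners and receptors, 9 were tested and 2 called (median 1.041), the integrin Itgb8 (2.43 ± 0.52), which activates latent TGF-beta, and the interleukin-10 receptor Il10ra (1.67 ± 0.42). The 15 T-lineage genes were all positive with none called and a median of 0.949. Scaled on Cd4, the medians of the first 4 lists were 0.309, -0.251, -0.46 and -0.466, and edgeR called Il1rl1 higher (1.90 ± 0.72, adjusted p = 0.0458). It called Gpr83 (-2.11), Il10rb (-2.04) and Il6st (-1.53) lower, genes named here after their values were seen, where 35.8% of all genes were called lower. Scaled on Cd3e or on the T-lineage genes, Il1rl1 was again the 1 surface or effector gene called higher (list medians 0.691 and 0.715). In TDLN CD4+ T cells no gene of any list was called (medians from -0.527 to -0.068).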

How the data were processed

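RNA was measured in 48 libraries, 4 in each of 12 groups, grouped by the genotype, sort, tissue and replicate number in the labels. The authors prepared SMART-Seq version 4 libraries from sorted cells and read them as paired ends. The submitters' processing notes name FastQC, Trimmomatic and Salmon 0.9.1, with mm10. The authors deposited 1 table per library with the expected count of reads that Salmon gave each transcript, not normalized. The same deposited tables hold a TPM per transcript, scaled within the library by effective length and depth, and the effective length in bases, which was used only for the length-offset alternative.

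Gene names came from GENCODE M21 (GRCm38), which held 111787 of the 112092 transcript identifiers once version suffixes were dropped. Expected counts were summed per gene and rounded. CPM are counts per 1000000 gene-assigned counts, TPM were summed per gene, and ratios divide summed counts within a library. Comparisons used the edgeR 4.0.16 quasi-likelihood test (R 4.3.3) on genes that reached 10 counts in 4 or more of the libraries fitted, with TMM and Benjamini-Hochberg adjustment over all genes tested. The SE is the log2 fold change divided by the square root of F. Ratios were compared by exact two-sided permutation tests over libraries. DESeq2 1.42.0 was an alternative, beside no count filter, a replicate block, length offsets, T-cell scalings, a Y-linked covariate, TPM ratios and leaving out each library. Code was tested on simulated counts. No per-sample column was left unmapped (0), and 0 of 72 pairs of libraries within a group were identical.

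The genes, lists and comparisons were chosen with earlier results of these data known. Named were all 8 members in every comparison, at most 4 genes of each list and direction called between genotypes in CD4+ TILs, and the 5 genes most like Foxp3. Libraries with the same number deviated together, with correlations above 0.1 in every pair for CD4+ against CD8+ T cells in WT TDLNs (0.354 to 0.737), WT TILs (0.152 to 0.65) and Yap-cKO TILs (0.157 to 0.576), and for CD4+ against CD45+ cells in WT TILs (0.189 to 0.442). In these the number was taken to pair the libraries. The values given for these comparisons nevertheless come from fits without the pairing, except where the replicate block is named.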

Additional observations from a re-analysis of the deposited data

Results flagged for a closer look

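In a group of 4 libraries, 1 library was taken to stand apart where its gap to the nearest other, divided by the range, exceeded Dixon's critical value for 4 values. This held for 20 of 188 groups of values (10.6%), where about 1 in 20 is given by chance for independent, normally spread values. The groups share libraries and denominators, so these shares are set side by side as a description only. By CPM, a library stood apart for Il2ra (0.836) and Ikzf4 (0.948) in Yap-cKO CD45+ TILs, both library 3, and for Ikzf4 in Yap-cKO CD45+ TDLNs (0.895, library 3), a group near the count floor. Library 4 stood apart for Nrp1 in WT CD4+ TDLNs (0.897) and WT CD8+ TDLNs (0.864). Library 2 stood apart for Lrrc32 in WT CD8+ TILs (0.883). In Yap-cKO CD8+ TILs it was library 4 for Il10 (0.842) and library 1 for Ebi3 (0.862). Il10 in Yap-cKO CD8+ TDLNs (1.0) rests on a single count in library 2.

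Of the ratios to Cd4, WT TIL library 1 stood apart for Ikzf2 (0.966), Ikzf4 (0.861) and Nrp1 (0.877), the library with the lowest Cd4 level and the highest melanocyte-lineage sum of its group. WT TDLN library 4 stood apart for Nrp1 (0.871). Of the ratios to Cd3e, WT TIL library 1 stood apart for Ikzf2 (0.869) and Nrp1 (0.881), WT TDLN library 4 for Il2ra (0.882) and Nrp1 (0.838), WT TDLN library 1 for Lrrc32 (0.874) and Yap-cKO TIL library 3 for Ikzf4 (0.928). Of the ratios to Foxp3, WT TIL library 4 stood apart for Il2ra (0.883). WT library 4 is also the WT library without the higher Y-linked sum.

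The effect of genotype differed between TILs and TDLNs of CD4+ T cells for Ikzf4 (log2 2.06) and Il10 (log2 2.9), by the interaction term in edgeR.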

How the results depend on the processing

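In all, 2025 alternative values were computed for 171 results. Of those for single genes given with a value, 1490 kept their direction and side of the threshold, 131 lost the call, 56 gained one and 11 changed sign. The number of members called between genotypes in CD4+ TILs, 4, was 7 by DESeq2, 1 with the replicate block, 0 with scaling on T-lineage genes, Cd4 or Cd3e, 0 with the Y-linked covariate, and 0 to 7 when 1 library was left out. The share of all genes called higher, 1.36%, moved to 4.1% by DESeq2, and 91 of 14205 genes were called higher with the block. The share called in either direction, 8.02%, moved to 15% by DESeq2, 5.4% with the block and 0.0141% with the covariate. In CD8+ TILs the number, 1, was 2 by DESeq2 and T-lineage scaling, 0 with the replicate block or the Y-linked covariate, and 0 to 2 with a library left out. Of all genes 12.2% were called there in either direction, 18.2% by DESeq2, 42.5% with T-lineage scaling, and 0.00708% with the block or the covariate. In CD45+ TILs DESeq2 called 3 in place of 0. It called 0.543% of genes higher, and 3.87% in place of 0.991% in either direction. The interaction, 2, became 6 by DESeq2, 4 without a count filter, 0 with the replicate block and 0 to 5 with a library left out. Of all genes 1.36% were called in either direction, then 5.58%, 1.43% and 0.59% for the first 3 alternatives. Called higher were 0.205% of genes, then 171 of 15087, 57 of 26947 and 13 of 15087. Between CD4+ and CD8+ WT TILs, 1 became 4 by DESeq2, 2 without a filter, 2 with the replicate block and 0 to 1 with a library left out. Of all genes 0.119% were called in either direction there, then 1.04%, 0.26% and 0.722% for the first 3 alternatives. Called higher were 0.0491% of genes, then 89 of 14266, 34 of 24250 and 57 of 14266.

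Between TILs and TDLNs, the number was 2 without a filter and 1 to 3 with a library left out in WT CD4+, and with a library left out 2 to 5 in WT CD8+, 3 to 6 in Yap-cKO CD8+ and 5 to 7 in Yap-cKO CD45+. For CD4+ against CD45+ cells in Yap-cKO TDLNs it was 5 to 8. In the last 4 of these, members that passed the count filter through 1 group only failed it when a library of that group was left out, so that part of the fall is not a lost call. Ratios to Cd4 separated 0 to 3 members in TILs and 1 to 4 in TDLNs (3 with TPM), ratios to Cd3e 0 to 4 and 1 to 2, and ratios to Foxp3 0 to 1 between genotypes in each tissue, 2 to 4 between tissues in WT and 2 to 4 in Yap-cKO.

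Nrp1 changed sign in CD4+ TILs under scaling on T-lineage genes (-0.067), Cd4 (-0.57) and Cd3e (-0.12), in CD4+ TDLNs on Cd4 (-0.36) and with the Y-linked covariate (-0.67), with a range of -0.088 to 0.41 over libraries left out, and between CD4+ and CD8+ WT TILs with the replicate block (0.13) and with a library left out (-0.70 to 0.40, the latter without CD8+ library 2). Lrrc32 in CD4+ TDLNs became 0.19 with the Y-linked covariate. Same-numbered libraries of WT and Yap-cKO did not deviate together, so in those comparisons the number was not taken as a pairing, and the cause of the lost calls was not tested. Elsewhere the paired fit with the replicate block moved no other count of members called by over 1.5 times. Leaving out libraries in comparisons of tissues, sorts and the interaction, and the ratios between tissues and to Foxp3, were added after seeing the data. Genes near 3 counts, such as Foxp3 in Yap-cKO CD45+ TDLNs, cannot be ranked between groups.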
